A study of Mus musculus with 32 samples.

Results

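Naive T cells stay in circulation between blood and lymphoid organs with the help of a small group of genes: Ccr7, S1pr1, Klf2, Il7r, Lef1, Tcf7, Foxp1 and Satb1. Their RNA was measured on arrays of 4 lymphoid tissues from mice with and without a CD30L transgene. The members were taken as all probe sets whose symbol in the array's probe-to-gene table is 1 of these 8 genes. That gave 20 of the 45037 probe sets, for 7 of the 8 genes: Foxp1 had 8 probe sets, Satb1 had 5, Il7r and Lef1 had 2 each, and Ccr7, S1pr1 and Klf2 had 1 each. No probe set in the table used here carried the symbol Tcf7, so that gene was not analysed here. All 20 probe sets passed the filter on low values in every comparison.

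As background, CCR7 is the chemokine receptor that lets naive T cells enter lymph nodes from the blood and settle in the T cell zone, and S1PR1 is the sphingosine 1-phosphate receptor that lets mature T cells leave the thymus and lymphoid organs. KLF2 is a zinc finger transcription factor that drives S1pr1 transcription and T cell quiescence, and the IL-7 receptor alpha chain, encoded by Il7r, carries the survival signal that resting T cells depend on. LEF1 and TCF1 (encoded by Tcf7) are HMG box factors of thymocyte development and naive T cell identity, FOXP1 is a forkhead factor that restrains naive T cells from activation, and SATB1 is a chromatin organiser of thymocytes. Several of these genes are not limited to T cells: B cells also express Ccr7, S1pr1, Klf2 and Foxp1, and endothelium also expresses S1pr1 and Klf2.

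The mice were 12-week-old C57BL/6 females, 4 that carried CD2-CD30L, a transgene expressed in T cells, and 4 littermates without it, here called transgenic and wild type as the labels have them. CD30L, encoded by Tnfsf8, is the ligand of CD30, a receptor of the tumour necrosis factor receptor family. Peripheral lymph node, mesenteric lymph node, spleen and thymus were taken from each of the 8 mice, which gave 32 arrays. RNA came from whole tissue, so that fewer cells of a type and less RNA per cell cannot be told apart in any value that follows. Values are log2 of the deposited intensity plus 16, after quantile normalisation, and are called log2 levels. The groups hold 4 mice each, a number that limits the precision, and probe sets of low signal varied more: in wild type peripheral lymph node the SD was 0.64 for Foxp1 1443258_at, at a mean of 6.57, and 0.10 for Foxp1 1435221_at, at 9.99.

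Across the series, trimmed mean intensities ran from 106 to 272 per array. The tissue labels were borne out by marker genes in the wild type mice: against peripheral lymph node, thymus had 10 of 11 markers of cortical CD4+ CD8+ thymocytes called higher, with a median log2 difference of 4.03, and all 12 B cell markers called lower, with a median of -4.02. Tissue from outside the lymph node was present on some arrays. Exocrine pancreas genes averaged log2 levels of 12.67 and 12.52 in the mesenteric lymph nodes of transgenic mice 1 and 3 and 13.25 in that of wild type mouse 2, against 4.92 to 5.24 in the other mesenteric nodes. In spleen they averaged 7.13 and 6.45 in wild type mice 1 and 4, against 5.17 to 5.59. Skeletal muscle genes averaged 10.17 and 8.58 in the peripheral lymph nodes of wild type mice 1 and 3 and 7.57 in that of transgenic mouse 1, against 5.44 to 5.72 in the other peripheral nodes. In thymus they averaged 7.47 in wild type mouse 2, against 5.38 to 5.79. These 9 arrays, 6 of them wild type, are the ones whose list mean lay over the median of their tissue by more than 0.5. Counts of member calls are given with and without them, and other values are with all arrays unless stated. The single Tnfsf8 probe set differed between the genotypes by -0.10 to 0.07 log2 in the 4 tissues. The labels do not say whether the transgene carries the sequence of that probe set, so it does not check the genotype labels.

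Of the 7 measured genes, 5 had entries in the promoter table. Because Klf2 and Il7r were low in thymus and Lef1 and Satb1 high there, the bases just before their first annotated start in RefSeq (mouse build GRCm38.p6) are shown 5′ to 3′ on the strand of the gene. Capitals mark matches to the motifs searched on both strands: CACCC or GGGTG (bound by KLF factors), TAAATTTA (MEF2 type), CTTCCTG or CAGGAAG (ETS type), TCAAAG or CTTTGA (TCF and LEF) and GTAAACA or TGTTTAC (forkhead).
Klf2 chr8:72318812-72319061 (+ strand): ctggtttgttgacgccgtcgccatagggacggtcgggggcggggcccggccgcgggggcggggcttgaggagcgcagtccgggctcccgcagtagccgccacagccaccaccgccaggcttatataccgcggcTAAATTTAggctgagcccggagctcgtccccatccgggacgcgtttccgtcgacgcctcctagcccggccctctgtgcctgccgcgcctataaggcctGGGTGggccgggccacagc
Il7r chr15:9529942-9530126 (- strand): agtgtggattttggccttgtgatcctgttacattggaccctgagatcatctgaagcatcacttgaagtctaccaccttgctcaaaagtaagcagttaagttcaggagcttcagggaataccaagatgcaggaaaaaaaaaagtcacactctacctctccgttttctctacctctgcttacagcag
Lef1 chr3:131110047-131110296 (+ strand): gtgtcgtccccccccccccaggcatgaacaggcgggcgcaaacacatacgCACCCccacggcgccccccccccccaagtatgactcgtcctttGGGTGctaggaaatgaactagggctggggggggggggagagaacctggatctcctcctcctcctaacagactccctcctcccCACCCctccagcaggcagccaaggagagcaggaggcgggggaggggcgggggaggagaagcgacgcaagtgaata
Satb1 chr17:51833291-51833540 (- strand): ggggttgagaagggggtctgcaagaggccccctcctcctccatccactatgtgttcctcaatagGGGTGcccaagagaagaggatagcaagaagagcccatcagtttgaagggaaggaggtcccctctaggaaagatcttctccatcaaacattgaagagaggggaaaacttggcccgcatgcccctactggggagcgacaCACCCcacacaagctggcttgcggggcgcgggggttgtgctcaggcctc
The Klf2 stretch held 1 TAAATTTA, which 0.502% of the 32851 RefSeq windows of 250 bases hold, and 1 KLF motif, which 52% hold. The Lef1 stretch held 3 KLF motifs and the Satb1 stretch 2. The Il7r stretch, 185 bases long because it ends where the gene's annotated interval begins, held none of the 5 motifs; this says only that those letters are not in it. ETS and TCF/LEF motifs, present in 10.8% and 13.8% of all windows, and forkhead motifs, in 3.17%, were not found in any of the 4 stretches. This covers the first start only, while Lef1 has 4 annotated starts and Satb1 has 5. The window of another Lef1 start held 2 TCF/LEF motifs and 1 ETS motif, and that of another Satb1 start held 1 ETS motif. Ccr7, on chromosome 11 at 99144199 to 99155077, and S1pr1, on chromosome 3 at 115710433 to 115715055, are named only. The Foxp1 entries lie inside that gene's annotated interval (chromosome 6, 98925342 to 99522746) and are not shown.

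The first comparison asked how the 7 measured genes are distributed over the 4 tissues of wild type mice. The entry, egress and survival genes Ccr7, S1pr1, Klf2 and Il7r were all lower in thymus than in any peripheral organ, Satb1 and Lef1 were higher in thymus, and Foxp1 was moderately lower there. Among the peripheral organs, Ccr7, Lef1 and Il7r were lower in spleen than in lymph node, whereas S1pr1 and Klf2 were not called between spleen and lymph node. Calls here are at an adjusted p under 0.05 from limma, with Benjamini-Hochberg adjustment over 27022 probe sets and the mouse as a block, since each mouse gave all 4 tissues.

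**Figure D1:**
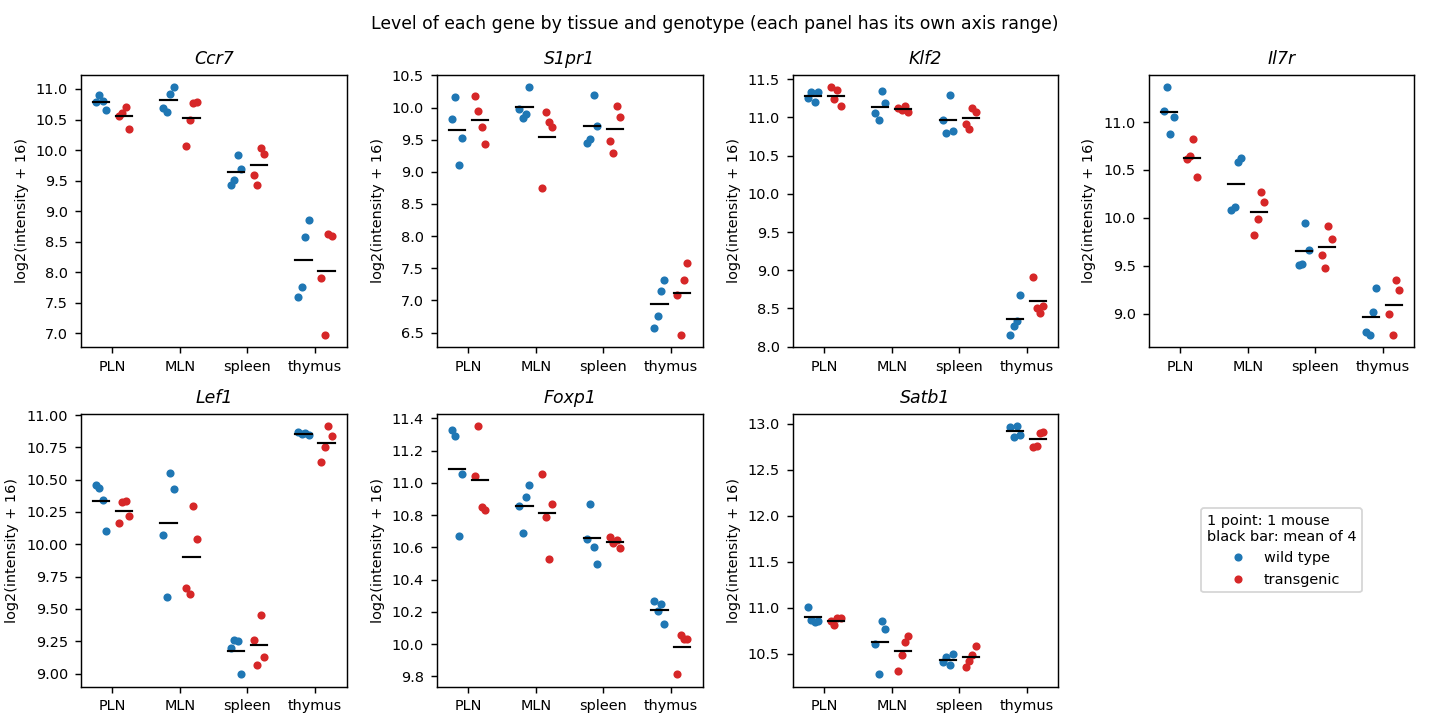
Log2 level of the most abundant probe set of each of the 7 measured genes (vertical axes) in the 4 tissues (horizontal axes), 1 point per mouse, with wild type mice in blue, transgenic mice in red and a black bar at each mean of 4. PLN and MLN are peripheral and mesenteric lymph node, and each panel has its own axis range. Ccr7, S1pr1, Klf2 and Il7r sit lowest in thymus, Satb1 and Lef1 sit highest there, and the points of the 2 genotypes overlap in most pairs.

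All 7 genes were called between thymus and peripheral lymph node, 5 lower and 2 higher in thymus, and the groups of all 7 stood apart. This is read against 57.1% of all probe sets called in that comparison, 28.7% lower and 28.4% higher, and 55.6% with groups apart, so that being called there does not set these genes apart. The median log2 difference of the 7 genes was -2.13, and that of all named genes was -0.14.

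Ccr7, the lymph node entry receptor, read 10.79, 10.90, 10.81 and 10.65 in peripheral lymph node of wild type mice 1 to 4, 10.69, 10.63, 10.92 and 11.03 in mesenteric lymph node, 9.42, 9.51, 9.91 and 9.69 in spleen, and 7.59, 7.75, 8.58 and 8.86 in thymus. The lymph nodes overlapped and stood above every spleen, and every spleen stood above every thymus. The order of the means was therefore mesenteric lymph node (10.82 ± 0.19, SD, n = 4), peripheral lymph node (10.79 ± 0.10), spleen (9.63 ± 0.22) and thymus (8.19 ± 0.62), and only the first step was not called (0.03 ± 0.20 log2, SE, adjusted p = 0.96). Thymus was 6.03-fold below peripheral lymph node (-2.59 ± 0.20, adjusted p = 3.7e-07). Spleen was 2.23-fold below it (-1.15 ± 0.20, adjusted p = 0.000707).

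S1pr1, the exit receptor, read 9.83, 10.16, 9.11 and 9.52 in peripheral lymph node. Mesenteric lymph node gave 9.98, 9.84, 9.90 and 10.32, spleen 9.44, 9.51, 10.20 and 9.71, and thymus 6.57, 6.76, 7.15 and 7.32. The 3 peripheral organs overlapped and every thymus lay below all of them. No pair among the peripheral organs was called: mesenteric against peripheral lymph node was 0.35 ± 0.25 (adjusted p = 0.516), spleen against peripheral lymph node 0.06 ± 0.25 (0.869), and spleen against mesenteric lymph node -0.29 ± 0.25 (0.384). Thymus was 6.53-fold below peripheral lymph node (-2.71 ± 0.25, adjusted p = 1.77e-06), 8.34-fold below mesenteric lymph node and 6.81-fold below spleen.

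Klf2, whose product drives S1pr1 transcription, was likewise lower in thymus than in every other organ. It read 11.26, 11.33, 11.21 and 11.33 in peripheral lymph node. Mesenteric lymph node gave 11.06, 10.97, 11.35 and 11.18, spleen 10.96, 10.80, 11.29 and 10.82, and thymus 8.15, 8.27, 8.34 and 8.67. The peripheral organs again overlapped and thymus stood apart, 7.58-fold below peripheral lymph node (-2.92 ± 0.13, adjusted p = 4.48e-09) and 6.1-fold below spleen (-2.61 ± 0.13, adjusted p = 1.07e-08). Spleen against peripheral lymph node was -0.31 ± 0.13 and missed the threshold (adjusted p = 0.0715). It passed without wild type mouse 3 (-0.45, adjusted p = 0.0368), with all 8 mice (-0.30, adjusted p = 0.00347), with a pseudocount of 64 (-0.31, adjusted p = 0.0465) and on arrays scaled to a common median (-0.51, adjusted p = 0.00903).

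Il7r, the survival receptor, differed between all 4 tissues by its most abundant probe set. It read 11.11, 11.37, 10.88 and 11.06 in peripheral lymph node. Mesenteric lymph node gave 10.08, 10.12, 10.59 and 10.63, spleen 9.51, 9.52, 9.95 and 9.66, and thymus 8.81, 8.78, 9.02 and 9.27. No tissue overlapped its neighbour in that order for this probe set. The second Il7r probe set, 1448576_at, did overlap at each step. It ran from 8.71 to 9.26 in peripheral and 8.14 to 8.79 in mesenteric lymph node. In spleen it ran from 7.22 to 8.18 and in thymus from 6.87 to 7.70. The values that follow are those of the most abundant probe set. Spleen was 2.72-fold below peripheral lymph node (-1.44 ± 0.16, adjusted p = 2.56e-05) and thymus 4.38-fold below it (-2.13 ± 0.16, adjusted p = 2.76e-07).

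The step between the lymph nodes was the only call among the 7 genes in that comparison, where 2.19% of all probe sets were called and 11.6% had groups apart. Mesenteric lymph node was 1.68-fold below peripheral lymph node for Il7r (-0.75 ± 0.16, adjusted p = 0.0294). The call was lost without wild type mouse 1 (-0.66, adjusted p = 0.275), mouse 2 (-0.58, 0.154) or mouse 4 (-0.85, 0.0807), with no filter (adjusted p = 0.0512), on values as deposited (-1.04, adjusted p = 0.132) without the 3 wild type lymph node arrays that hold muscle or pancreas RNA (-0.77, adjusted p = 0.161) and without all 6 such wild type arrays (-0.67, adjusted p = 0.426). In the 4 transgenic mice, the same difference was -0.57 and was called (adjusted p = 0.0376), and over all 8 mice it was -0.66 (adjusted p = 0.000619). The second Il7r probe set averaged 8.50 in mesenteric and 8.86 in peripheral lymph node of wild type mice and was not called.

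Lef1, an HMG box factor of thymocytes and naive T cells, was highest in thymus and lowest in spleen. It read 10.87, 10.85, 10.86 and 10.85 in thymus, 10.46, 10.44, 10.34 and 10.10 in peripheral lymph node, 10.07, 9.59, 10.55 and 10.43 in mesenteric lymph node, and 9.20, 9.26, 9.25 and 8.99 in spleen. The lymph nodes overlapped, whereas thymus lay above and spleen below all lymph nodes. Thymus exceeded spleen 3.21-fold (1.68 ± 0.17, adjusted p = 5.77e-06) and peripheral lymph node 1.44-fold (0.52 ± 0.17, adjusted p = 0.0204). The latter call was lost without wild type mouse 1 (0.56, adjusted p = 0.0689), mouse 3 (0.53, 0.0644) or mouse 4 (0.45, 0.0819), on arrays scaled to a common median (0.39, adjusted p = 0.151) and on values as deposited (0.35, adjusted p = 0.414). Spleen was 2.23-fold below peripheral lymph node (-1.16 ± 0.17, adjusted p = 0.000278).

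Satb1, the chromatin organiser, showed the widest gain in thymus of the 7 genes. It read 12.97, 12.86, 12.97 and 12.88 in thymus, against 11.01, 10.87, 10.85 and 10.86 in peripheral lymph node, 10.61, 10.28, 10.86 and 10.78 in mesenteric lymph node and 10.41, 10.47, 10.38 and 10.50 in spleen. Thymus stood far above the other organs, 4.07-fold above peripheral lymph node (2.02 ± 0.11, adjusted p = 2.58e-08) and 5.59-fold above spleen (2.48 ± 0.11, adjusted p = 5.25e-09). Spleen was lower than peripheral lymph node by a small margin (-0.46 ± 0.11, adjusted p = 0.00663), a call lost without wild type mouse 1 (-0.41, adjusted p = 0.0698) and on values as deposited (adjusted p = 0.429). Neither lymph node step was called: mesenteric against peripheral lymph node was -0.27 ± 0.11 (adjusted p = 0.264) and spleen against mesenteric lymph node -0.19 ± 0.11 (0.205).

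Foxp1, the quiescence factor, had the narrowest range of levels over the tissues. Its mean was 11.09 ± 0.30 (SD, n = 4) for peripheral lymph node, 10.86 ± 0.13 for mesenteric lymph node, 10.66 ± 0.16 for spleen and 10.21 ± 0.06 for thymus. Neighbouring peripheral organs overlapped and were not called, and every thymus, at 10.26, 10.21, 10.25 and 10.12, lay below every other organ. Thymus was 1.84-fold below peripheral lymph node (-0.88 ± 0.14, adjusted p = 0.000165). Its difference from spleen (-0.45 ± 0.14, adjusted p = 0.0173) lost its call without wild type mouse 1 (adjusted p = 0.0641), mouse 2 (0.0668) or mouse 4 (0.0507), on arrays scaled to a common median (0.0676) and on values as deposited (0.0644). The call between spleen and peripheral lymph node (-0.43 ± 0.14, adjusted p = 0.0262) was lost without mouse 1 (-0.35, adjusted p = 0.172) or mouse 4 (-0.39, 0.119) and on values as deposited (0.476).

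The split between thymus and periphery was the same in the other pairs. Thymus against mesenteric lymph node had all 7 genes called in the same directions, beside 55% of all probe sets called and 53.2% with groups apart, and thymus against spleen likewise, beside 50% and 48.8%. Spleen against peripheral lymph node had 5 of the 7 genes called lower, 4 of them with groups apart, beside 38.8% of probe sets called, 21% called lower and 37.2% with groups apart. Spleen against mesenteric lymph node had 3 called lower, namely Ccr7 (-1.19 ± 0.20, adjusted p = 0.00072), Lef1 (-0.98 ± 0.17, 0.00103) and Il7r (-0.69 ± 0.16, 0.0049), beside 34.8% called and 33.3% with groups apart. On values as deposited, none of these 3 was called (adjusted p = 0.0631 for Ccr7, 0.187 for Lef1 and 0.476 for Il7r, from limma). Without the 3 wild type lymph node arrays that hold most muscle or pancreas RNA, all 7 genes were called in each thymus comparison, 5 in spleen against peripheral lymph node and 4 in spleen against mesenteric lymph node. Without all 6 wild type arrays above the limit, which leaves 10 arrays, all 7 were called in thymus against either lymph node and 5 in thymus against spleen, where Il7r (-0.58, adjusted p = 0.128) and Foxp1 (-0.39, 0.111) were lost. In that set Il7r and Lef1 alone were called in spleen against peripheral lymph node, where Ccr7 was at -1.05 (adjusted p = 0.0829), and Lef1 alone in spleen against mesenteric lymph node, where Ccr7 was at -1.36 (0.0609). The transgenic mice on their own gave the same number of calls in each of the 6 pairs. There, thymus against peripheral lymph node was -2.69 for Klf2, -2.70 for S1pr1, -2.53 for Ccr7, -1.54 for Il7r, -1.04 for Foxp1, 1.97 for Satb1 and 0.53 for Lef1.

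The organs differ in their cells, and marker genes of cell types differed between the organs as well, not all in the direction of the members. Against peripheral lymph node, all 14 pan T cell genes measured (such as Cd3e, Cd5 and Lck) were called lower in spleen, with a median of -1.60, and 13 of the 14 were called higher in thymus, with a median of 0.89. The 12 B cell and 12 endothelial markers were called lower in thymus, with medians of -4.02 and -2.98, as were 14 of 15 markers of activated or memory T cells (-1.71) and 8 of 9 of dendritic cells (-1.94). Other lists also differed between wild type spleen and peripheral lymph node, by means normalised within each organ. Erythroid (red cell precursor) genes averaged 10.73 in spleen and 6.04 in peripheral lymph node. Proliferation genes averaged 10.09 and 7.78, while B cell markers averaged 10.88 and 10.86. The part of these cell types in the members' differences was not tested.

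In a comparison added after the values were seen, each gene was set relative to the mean of the 14 pan T cell genes on the same array. On that scale spleen was no longer below peripheral lymph node for any of the 7 genes: Il7r was at 0.02 ± 0.17, Lef1 at 0.30 ± 0.12, Ccr7 at 0.31 ± 0.22, Satb1 at 1.00 ± 0.12, Foxp1 at 1.03 ± 0.14, Klf2 at 1.15 ± 0.16 and S1pr1 at 1.52 ± 0.26. The pan T mean itself was 1.46 log2 units lower in spleen than in peripheral lymph node, 1.04 higher in thymus than in peripheral lymph node and 2.50 higher in thymus than in spleen. Subtracting it moves every probe set by that amount, so a change of sign on this scale follows from the subtraction, and 94.4%, 82.2% and 98.3% of all probe sets were called in these comparisons. In thymus against peripheral lymph node, the values were -3.96 for Klf2, -3.74 for S1pr1, -3.63 for Ccr7, -3.17 for Il7r, -1.91 for Foxp1, -0.51 ± 0.12 for Lef1 and 0.99 for Satb1. In thymus against spleen, Lef1 was at -0.81 and Satb1 at -0.01.

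**Figure D2:**
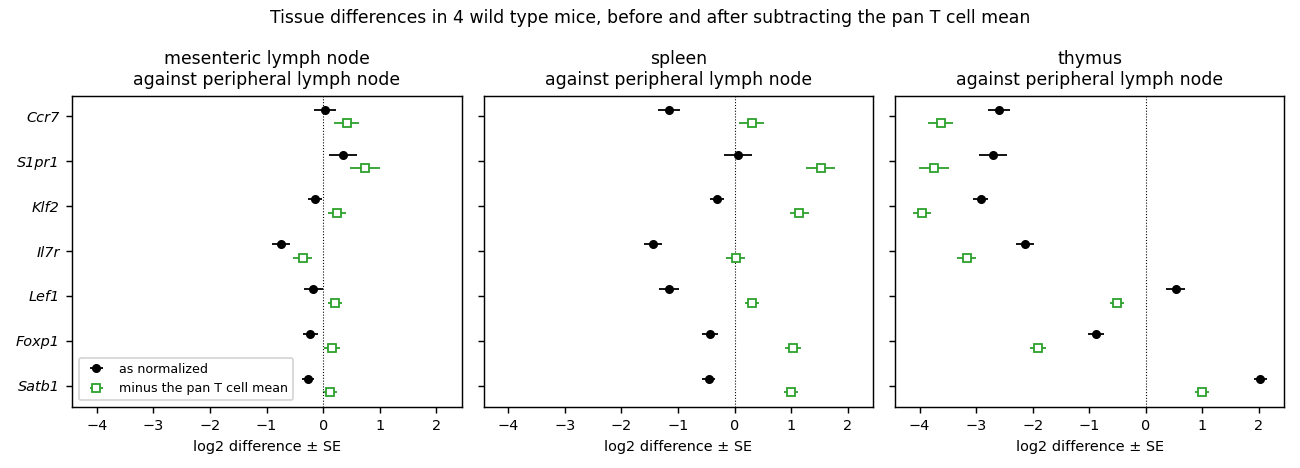
Log2 difference ± SE against peripheral lymph node in the 4 wild type mice (horizontal axes) for each of the 7 measured genes (rows), in 1 panel each for mesenteric lymph node, spleen and thymus. Filled circles are the normalised values and open squares the values relative to the pan T cell mean; in thymus the circles run from -2.92 for Klf2 to 2.02 for Satb1, and Lef1 changes side by the subtraction.

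Probe sets of 1 gene mostly moved together, with an exception in Foxp1 that was called and others, in Satb1 and Lef1, that were not. All 5 Satb1 probe sets were called higher in thymus than in peripheral lymph node, at 1.64 to 3.67 log2, and the second Lef1 probe set was higher by 1.68 ± 0.18. The second Il7r probe set was lower in thymus (-1.54) and in spleen (-1.10). For Foxp1, 6 of 8 probe sets were called lower in thymus than in peripheral lymph node, at -0.56 to -0.96, whereas 1438802_at and 1443258_at, at 0.29 and 0.36, were not called. The same pair of probe sets was higher in spleen than in peripheral lymph node (0.89 ± 0.22, adjusted p = 0.00787, and 1.01 ± 0.27, adjusted p = 0.0108), opposite to the most abundant Foxp1 probe set. The files do not say which Foxp1 transcripts each probe set reads. Satb1 1439449_at averaged 7.86 in spleen and 7.56 in peripheral lymph node, opposite to the most abundant Satb1 probe set. Lef1 1421299_a_at averaged 7.96 in mesenteric and 7.55 in peripheral lymph node, opposite to the most abundant Lef1 probe set. Neither difference was called.

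**Figure D3:**
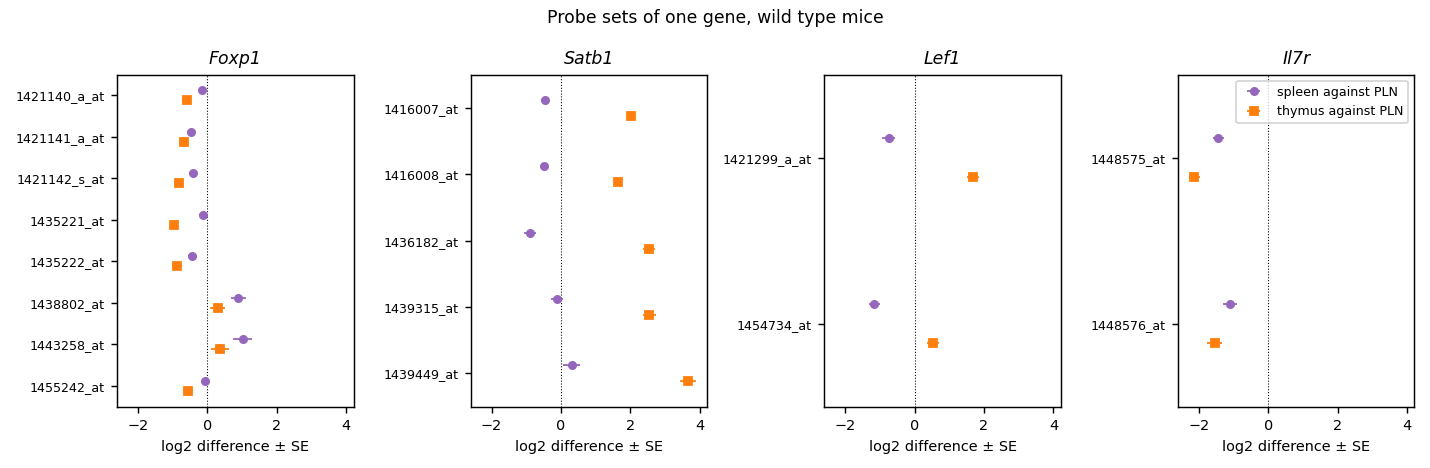
Log2 difference ± SE (horizontal axes) of every probe set (rows) of Foxp1, Satb1, Lef1 and Il7r in wild type mice, with circles for spleen and squares for thymus, each against peripheral lymph node (PLN). The 5 Satb1 probe sets are all higher in thymus, and 2 of the 8 Foxp1 probe sets lie above 0 while the other 6 lie below it.

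The pathway genes around each member were counted in thymus against peripheral lymph node in the same way, beside 28.4% of all probe sets called higher, 28.7% called lower and a median of -0.14 over all named genes. Of 18 genes of the sphingosine 1-phosphate exit pathway, which include S1pr1 and Klf2, 1 was called higher and 11 lower (median -0.48). Of 11 genes of CCR7 signalling and lymph node entry, which include Ccr7, 2 were called higher and 5 lower (-0.10). Of 15 of IL-7 signalling, which include Il7r, 5 were called higher and 8 lower (-0.44). Of 19 TCF and LEF partners and targets, 9 were called higher and 4 lower (0.29), and of 11 chromatin organisers and partners of SATB1, 7 higher and 3 lower (0.47). Of 19 quiescence genes, which include Foxp1, 6 were called higher and 9 lower (-0.21). These counts therefore partly repeat members already given above. No list was tested against the others.

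The second comparison asked whether T cell expression of CD30L goes with a change in these genes. No member gene and none of the 20 probe sets was called between transgenic and wild type mice in any tissue (limma, adjusted p under 0.05). Beside that, 0.037% of all probe sets were called in peripheral lymph node, 0% in the mesenteric node, 0.0111% in spleen and 0.0037% in thymus, so few probe sets of any kind passed. At an unadjusted p under 0.05 from limma, 2 of the 20 member probe sets stood out in peripheral nodes, 2 in mesenteric nodes, 0 in spleen and 1 in thymus, beside 8.36%, 4.71%, 8.56% and 7.26% of all probe sets.

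**Figure D4:**
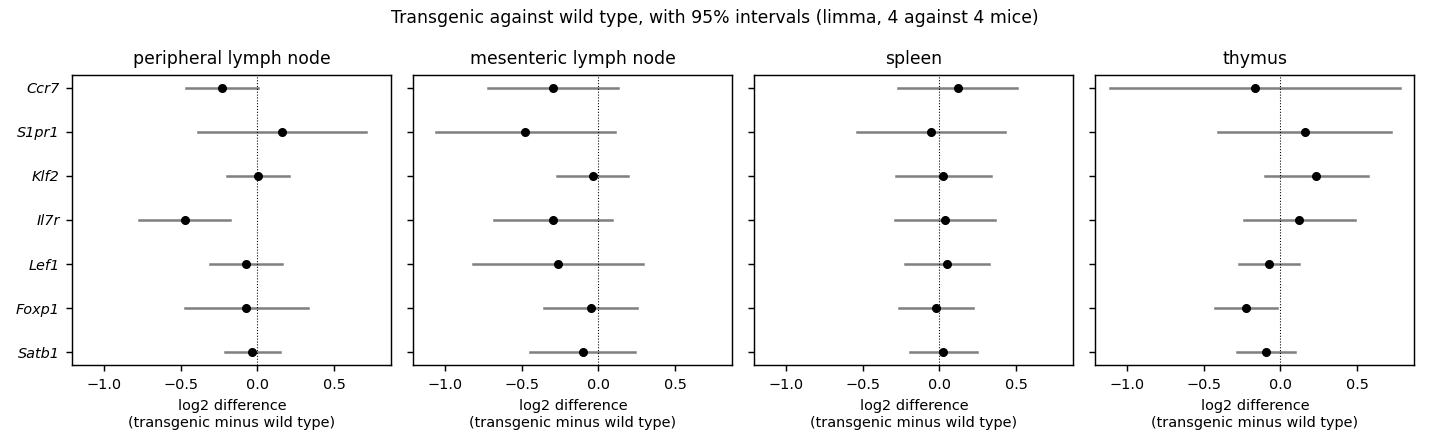
Log2 difference of transgenic against wild type mice (horizontal axis) for each of the 7 measured genes in the 4 tissues, with bars for the 95% confidence interval of the limma fit. No point passed an adjusted p under 0.05, and the farthest from 0 in peripheral lymph node is Il7r at -0.47.

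In peripheral lymph node, the largest difference among the 7 genes was in Il7r. Normalised within that tissue, its level was 11.26, 11.52, 11.02 and 11.20 in wild type mice and 10.77, 10.80, 10.97 and 10.57 in transgenic mice. Every transgenic mouse lay below every wild type mouse, as was the case for 2.92% of all probe sets. The difference was -0.47 ± 0.13 (SE, 95% interval -0.77 to -0.18), a 1.39-fold lower mean that did not pass (limma, adjusted p = 0.374). Over its alternatives the adjusted p ran from 0.223 to 0.878. The second Il7r probe set gave -0.15 ± 0.20 and its groups overlapped. Without the 3 arrays that hold muscle RNA the difference was -0.58, and on arrays scaled to pan T cell genes it was -0.34, beside a median of 0.13 over all probe sets on that scale.

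Ccr7 followed in that organ, at 10.94, 11.04, 10.95 and 10.80 in wild type and 10.70, 10.76, 10.85 and 10.49 in transgenic mice. The groups overlapped only through transgenic mouse 3 and wild type mouse 4, and the difference of -0.23 ± 0.10 did not pass (adjusted p = 0.608); without the 3 arrays that hold muscle RNA it was -0.22. S1pr1 (0.16 ± 0.24), Klf2 (0.01 ± 0.09), Lef1 (-0.07 ± 0.10), Foxp1 (-0.07 ± 0.18) and Satb1 (-0.03 ± 0.08) had intervals that include 0. A Satb1 probe set of lower abundance, 1436182_at, did separate the groups, at 9.19, 9.10, 9.28 and 9.25 in wild type and 8.84, 8.89, 8.95 and 9.03 in transgenic mice (-0.28 ± 0.09, adjusted p = 0.427), while the 4 other Satb1 probe sets did not. The widest probe set difference in this organ was 0.63 ± 0.37 for Foxp1 1443258_at, whose groups overlapped (adjusted p = 0.701). Of the 14 pan T cell genes, 13 were lower in transgenic mice (median -0.19), and all 13 proliferation genes were higher (median 0.96). None of them was called (limma, smallest adjusted p = 0.124). Whether these move the members' values was not tested. The proliferation genes were not higher in transgenic spleen, at a mean of 9.73 beside 10.09 in wild type. In thymus they averaged 10.60 in transgenic and 10.58 in wild type mice.

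In mesenteric lymph node, all 7 genes had lower means in transgenic mice, with a median of -0.26 beside 0.02 over all named genes, and none was called. S1pr1 had the widest difference, at 9.82, 9.68, 9.74 and 10.18 in wild type and 8.59, 9.77, 9.61 and 9.54 in transgenic mice. Transgenic mouse 1, whose node held pancreas RNA, was the lowest, mouse 2 lay within the wild type range, and mice 3 and 4 lay just below it. The difference was -0.48 ± 0.25 (95% interval -1.06 to 0.11) with all arrays and -0.25 without the 3 that hold pancreas RNA. Ccr7 (-0.30 ± 0.19), Il7r (-0.30 ± 0.17) and Lef1 (-0.26 ± 0.24) came next, and their groups overlapped. Without the 3 arrays all 7 were still lower, with Lef1 at -0.53 and Il7r at -0.36. The direction for Klf2 and Foxp1 flipped on values as deposited, on a common median and on pan T cell scaling, and that for Satb1 on the first pair of these, so that all 7 being lower does not hold under every scaling.

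Some probe sets besides the most abundant ones moved further in that organ. The second Lef1 probe set differed by -0.60 ± 0.22 and Foxp1 1443258_at by -0.59 ± 0.20, the latter with every transgenic below every wild type mouse (limma, adjusted p = 0.914), as for 1.23% of all probe sets. The second Il7r probe set averaged 7.77 in transgenic and 8.34 in wild type mice, with groups that overlapped. That gap was wider than the one of the same probe set in peripheral lymph node. In peripheral lymph node Foxp1 1443258_at went the other way, as given above. In all, 17 of the 20 member probe sets were lower in transgenic mesenteric lymph node. The count was 16 in peripheral lymph node, 15 in thymus and 8 in spleen, with probe sets of 1 gene counted separately. Of all probe sets tested, 52.1% were higher in transgenic mesenteric and 47.7% in transgenic peripheral lymph node. That share was 49.9% in thymus and 51.2% in spleen. Markers of dividing cells and of germinal centre B cells had higher means in transgenic mesenteric lymph node, where no probe set was called. The proliferation genes averaged 8.47 in wild type (8.28 to 8.56) and 8.98 in transgenic mice (8.85 to 9.15). The germinal centre genes averaged 8.42 (8.31 to 8.66) and 8.89 (8.77 to 9.05). Their part in the members' values was not tested.

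In spleen, the 7 genes differed by -0.06 to 0.12 log2, and their 95% intervals together spanned -0.54 to 0.51. Without the 2 wild type spleens that hold pancreas RNA none was called either, and the values ran from -0.19 for S1pr1 to 0.043 for Satb1. The levels of Ccr7, at 9.42, 9.51, 9.91 and 9.69 in wild type and 9.59, 9.43, 10.04 and 9.94 in transgenic mice on the scale of all 32 arrays, show how far the groups overlapped. No member probe set separated the groups, beside 4.88% of all probe sets that did. Erythroid genes averaged 10.01 in transgenic spleen (9.33 to 10.54) and 10.73 in wild type spleen (10.37 to 11.14). None of them was called (limma, smallest adjusted p = 0.540), and their part in the members' values was not tested. All 14 pan T cell genes were higher in transgenic spleen, 8 of them with groups apart (median 0.29) but none called (limma, smallest adjusted p = 0.413). Scaled on those genes, the 7 members were lower by 0.22 to 0.40 log2 and none was called (adjusted p = 0.102 to 0.345, limma); the median of all probe sets on that scale was -0.34, so the members moved with the rest of the array.

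In thymus, Foxp1 was the gene whose groups did not overlap, at 10.20, 10.15, 10.18 and 10.06 in wild type and 9.76, 9.995, 9.97 and 9.97 in transgenic mice. The difference of -0.22 ± 0.09 (95% interval -0.43 to -0.02) did not pass (limma, adjusted p = 0.665), and 2.07% of all probe sets had every transgenic below every wild type mouse in that organ. A second Foxp1 probe set, 1455242_at, also had groups apart, with a smaller difference of -0.10. The remaining Foxp1 probe sets overlapped, and of them 1435221_at alone was not lower, at 8.86 in transgenic and 8.83 in wild type mice. Klf2 was higher by 0.24 ± 0.15, and Ccr7, the most variable member there, differed by -0.17 ± 0.42 with an interval from -1.11 to 0.78. S1pr1 (0.16 ± 0.25), Il7r (0.12 ± 0.16), Satb1 (-0.09 ± 0.08) and Lef1 (-0.07 ± 0.09) had intervals that include 0. In the same thymuses, B cell markers averaged 6.55 in wild type (6.37 to 6.73) and 6.99 in transgenic mice (6.80 to 7.32), and markers of activated or memory T cells 6.83 (6.78 to 6.90) and 7.11 (6.91 to 7.20). The ranges stood apart, but no gene of either list was called (limma, smallest adjusted p = 0.399). The part of these markers in the members' values was not tested.

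The pathway lists gave no call between genotypes in any organ. For the quiescence genes, which include Foxp1, the smallest adjusted p from limma was 0.708 in peripheral and 0.972 in mesenteric lymph node. It was 0.573 in spleen and 0.665 in thymus, and the medians of that list are not given here. The sphingosine 1-phosphate genes had medians of 0.00 in both lymph nodes, 0.15 in spleen and 0.03 in thymus, and the CCR7 and lymph node entry genes -0.02, 0.01, 0.14 and -0.04 in the order peripheral lymph node, mesenteric lymph node, spleen and thymus. IL-7 signalling genes had medians of -0.02, -0.12, 0.06 and 0.07, TCF and LEF genes -0.02, -0.07, 0.05 and -0.07, and the SATB1 group 0.03, 0.05, 0.06 and -0.04. All named genes had -0.03, 0.02, 0.01 and 0.04.

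Among the pathway genes with the smallest p-values, S1pr2, a sphingosine 1-phosphate receptor that holds germinal centre B cells in place, was higher in transgenic spleen by 1.27 ± 0.32 with groups apart but did not pass (adjusted p = 0.528). It was also higher by 0.61 in peripheral and 0.37 in mesenteric lymph node. S1pr2 is on the germinal centre B cell list as well, and all 10 genes measured on that list were higher in transgenic spleen (median 1.01, 8 with groups apart, 1 called). Ikzf3, a lymphocyte zinc finger factor, was higher in spleen by 0.51 ± 0.13 with groups apart, and Socs1, a cytokine signalling inhibitor, by 0.60 ± 0.16, neither passing. In thymus, Runx3, a factor of CD8+ T cell development, was higher by 0.44 ± 0.10 (adjusted p = 0.484) and Myc was lower (-0.31 ± 0.09, adjusted p = 0.589), each with groups apart. Socs1 had the opposite sign there, at -0.40 ± 0.16 with groups apart (adjusted p = 0.665).

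Whether the genotype difference itself varied by tissue was tested on each mouse's difference between tissues. No member was called in any of the 6 pairs of tissues (limma), where 0% of probe sets were called except 0.0111% in thymus against spleen. By the most abundant probe sets, Il7r had the smallest p-value of the 7 genes in 3 of the pairs. Its genotype difference was higher by 0.60 ± 0.22 in thymus than in peripheral lymph node (limma, adjusted p = 0.454). It was higher by 0.51 ± 0.22 in spleen than in peripheral lymph node (limma, adjusted p = 0.649). It was also higher by 0.42 ± 0.14 in thymus than in mesenteric lymph node (limma, adjusted p = 0.981). Of all 20 probe sets over the 6 pairs, 6 differences had an unadjusted p under 0.05: these 3, Ccr7, higher by 0.41 ± 0.17 in spleen than in mesenteric lymph node, Satb1 1436182_at, higher by 0.42 ± 0.17 in spleen than in peripheral lymph node, and Foxp1 1443258_at, at -1.18 ± 0.40 for mesenteric against peripheral lymph node. Beside them, the share of all probe sets under that mark was 9.71% for thymus, 7.6% for spleen and 5.39% for mesenteric lymph node, each against peripheral lymph node, 5.01% for thymus and 5.96% for spleen against mesenteric lymph node, and 8.46% for thymus against spleen. Without the mice whose arrays in either organ held muscle or pancreas RNA, which left 1 to 3 wild type and 2 to 4 transgenic mice, no member was called, and the first 3 Il7r values were 0.28, 0.94 and 0.34; a lone wild type mouse is assumed to vary like the others. So the lower Il7r mean in peripheral lymph node was not shown to be particular to that organ.

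The members were also set against each other and against all named genes, as a description without a test. The 32 arrays come from 8 mice and 4 organs, so these correlations mostly carry the organ differences. Over the 32 arrays Pearson's r was 0.96 between S1pr1 and Klf2, 0.91 between Ccr7 and S1pr1, 0.79 between Lef1 and Satb1, and -0.95 between Klf2 and Satb1. With the mean of each organ and genotype taken out, r was 0.81 between Ccr7 and Il7r, 0.78 between S1pr1 and Il7r, 0.77 between Ccr7 and S1pr1, and 0.74 between Lef1 and Satb1, and it was lower for Klf2, at 0.56 with Il7r, 0.44 with S1pr1 and 0.39 with Ccr7. Foxp1 stayed between -0.11 and 0.16 with every other member. Those residuals share the array, its normalisation and the tissue that was dissected.

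The genes most like each member over the 32 arrays were those of the organs in which it is high. Lef1 ran closest to Cd96, Cd3g and Cd5 (r = 0.96 for each), which are T cell surface genes, and Satb1 to Sox4, Camk4 and Znrf1 (0.99 each). Klf2 ran closest to Icosl, Cd79b and Ighv14-2 (0.99 each), of which Cd79b and Ighv14-2 are B cell receptor genes, and S1pr1 to Lcp1, Lgmn and Mpeg1 (0.98 each). For Ccr7 they were Gusb, Icam1 and Cst7 (0.97 each), for Il7r Cxcr6, Ifi47 and Slfn1 (0.96 each), and for Foxp1 Ccdc88a (0.93), Ms4a8a and Slc15a4 (0.92 each). With group means taken out, the closest were Cst7 (0.92) for Ccr7, Lcp1 (0.86) for S1pr1, Cnrip1 (0.80) for Klf2, Cd7 (0.83) for Il7r, Sit1 (0.81) for Lef1, Dpysl3 (0.78) for Foxp1, and Cd3g and Ikzf1 (0.82 each) for Satb1.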

How the data were processed

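RNA from 4 tissues of 8 mice was hybridised to 32 Affymetrix arrays, 1 per tissue and mouse. Total RNA was taken with a spin column kit and labelled with biotin, per the labels' protocols. The deposited values are intensities on a linear scale, with 14.9% to 18.4% of each array below 0; how they were summarised and scaled is not given in the sources used here. Values below 0 became 0, a pseudocount of 16 was added, and the log2 values were quantile normalised over the 8 arrays of a tissue (genotype comparisons) or over all 32 (tissue comparisons). Of 45101 array rows, 64 controls were left out; 34945 probe sets had 1 gene symbol, 932 several and 9160 none. Probe sets whose mean exceeded the 40th percentile were tested with limma 3.58.1 in R 4.3.3, whose recovery of known changes was tested on simulated data, with Benjamini-Hochberg adjustment over all of them. The mouse was a block in the tissue fits, since the labels number the mouse of each tissue. Each gene's most abundant probe set stands for it; genes named are the members, the 3 most correlated with each, and up to 2 per pathway list with the smallest p. Mouse numbers are not shared between genotypes by the labels, and correlations of same-numbered mice within a tissue ran from -0.44 to 0.33. Members and gene lists were chosen with earlier results of these data known. The pan T cell scaling of tissues and the sets without muscle or pancreas arrays were added after the data were seen. Alternatives covered the pseudocount, scaling, filter, block, array weights, probe set and each mouse left out.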

Additional observations from a re-analysis of the deposited data

Results flagged for a closer look

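Of 56 groups of 4 mice tested for a mouse far from the others, 2 had one, and chance gives about 1 in 20. Foxp1 in the thymus of transgenic mouse 1 read 9.76 log2, below the other 3, of which the nearest read 9.97. Satb1 in the peripheral lymph node of wild type mouse 1, an array that holds muscle RNA, read 11.16, above 10.99 to 11.02 in the other 3.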

How the results depend on the processing

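No alternative run gave a call among the 7 genes between genotypes, or when the genotype difference was compared between tissues. The thymus comparisons kept their direction for all 7 genes in every alternative listed for them, except that, relative to the pan T cell mean, Lef1 turned and Satb1 against spleen came to -0.01, while spleen and lymph node comparisons moved more. The 4 mice a group limit all genotype values, and the cause of each change below was not tested. Scaling shifts the median of all probe sets: as deposited to 0.18 (peripheral lymph node) and -0.17 (spleen) between genotypes and to 0.33 for spleen against mesenteric lymph node, and on pan T cell genes to 0.13 and -0.34. Genotype differences turned as follows. On values as deposited: peripheral lymph node Lef1 0.081, Foxp1 0.089, Satb1 0.13; mesenteric lymph node Klf2 0.14, Foxp1 0.12, Satb1 0.072; spleen Ccr7 -0.086, Klf2 -0.17, Il7r -0.17, Lef1 -0.16, Satb1 -0.17. On a common median: peripheral lymph node Klf2 -0.10; mesenteric lymph node Klf2 0.11, Foxp1 0.088, Satb1 0.037. On pan T cell genes: peripheral lymph node Lef1 0.064, Foxp1 0.067, Satb1 0.11; mesenteric lymph node Klf2 0.041, Foxp1 0.028; spleen Ccr7 -0.22, Klf2 -0.32, Il7r -0.31, Lef1 -0.29, Satb1 -0.32; thymus Lef1 0.014. Without the 3 arrays that hold muscle RNA: peripheral lymph node S1pr1 -0.15, Klf2 -0.082, Lef1 0.019, Satb1 0.00067. Without the 2 spleens that hold pancreas RNA: Klf2 -0.052, Il7r -0.037, Lef1 -0.031. With array weights: spleen Lef1 -0.0028, Satb1 -0.013; thymus Ccr7 0.21. With the second probe set: spleen Il7r -0.20, Foxp1 0.10; thymus Il7r -0.059. Leaving out a mouse gave, in peripheral lymph node, S1pr1 -0.025 to 0.33, Klf2 -0.033 to 0.051, Foxp1 -0.21 to 0.0096, Satb1 -0.049 to 0.0046; in mesenteric lymph node, Klf2 -0.094 to 0.035, Foxp1 -0.14 to 0.049; in spleen, S1pr1 -0.18 to 0.10, Klf2 -0.031 to 0.13, Il7r -0.036 to 0.13, Lef1 -0.027 to 0.10, Foxp1 -0.072 to 0.049, Satb1 -0.015 to 0.060; and in thymus, Ccr7 -0.37 to 0.18.

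In wild type tissues, mesenteric against peripheral lymph node had 0 of the 7 genes called as deposited, without a filter and without the 3 lymph node arrays or all 6 arrays that hold muscle or pancreas RNA, 2 with all 8 mice, and 0 to 1 with a mouse left out. Spleen against peripheral lymph node had 3 as deposited, 2 without the 6 arrays and 3 to 6 with a mouse left out, and spleen against mesenteric lymph node 0 as deposited and 1 without the 6 arrays. With the 6 arrays left out, fewer arrays enter the fit. Values that turned were, in mesenteric against peripheral lymph node, Ccr7 at -0.26 as deposited, -0.091 on a common median, -0.023 in transgenic mice and -0.087 to 0.13 with a mouse left out, S1pr1 at -0.28 in transgenic mice, and Lef1 at 0.12 without the 3 arrays, 0.21 without the 6 and -0.34 to 0.053 with a mouse left out. In spleen against peripheral lymph node, S1pr1 was -0.10 on a common median, -0.045 with all 8 mice, -0.15 in transgenic mice, -0.090 without the 3 arrays, -0.0027 without the 6 and -0.28 to 0.30 with a mouse left out. In spleen against mesenteric lymph node, S1pr1 was 0.13 in transgenic mice, and as deposited S1pr1 was 0.10, Klf2 0.18, Foxp1 0.16 and Satb1 0.19.

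The labels do not say whether same-numbered mice of the genotypes share more than a number. With the number as a replicate block, 0 members were called and 2, 0, 0 and 0 probe sets in all (peripheral lymph node, mesenteric lymph node, spleen, thymus), against 10, 0, 3 and 1 without it. Over the alternatives these counts ran from 0 (without wild type mouse 4) to 112 (as deposited) in peripheral lymph node, 0 to 3 in mesenteric lymph node, 0 to 224 in spleen and 0 to 58 in thymus, the last pair highest in the fit of all 32 arrays. Without the mouse block the tissue fits called the same number of members. Mesenteric against peripheral lymph node ran from 28 probe sets (without the 6 arrays) to 1458 (all 8 mice), against 591. Spleen against peripheral lymph node gave 3913 without the 6 arrays and 5480 as deposited against 10489, and thymus against peripheral lymph node 10054 and 10137 against 15424.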
